A study of Mus musculus with 9 samples.

Results

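The cytosolic ribosomal protein genes encode the proteins of the cell's main ribosome, and they were followed here in mouse lung tumour cells that had grown with or without myeloid cells. Members were chosen by name alone: every row of the deposited table whose name has the form of a large or small subunit ribosomal protein gene (Rpl or Rps and a number, with Rplp0, Rplp1, Rplp2 and Rpsa), leaving out the ribosomal S6 kinases and names that mark a pseudogene. The rule found 82 of the 12339 genes in the table. They comprise 42 genes of the large subunit, 31 of the small subunit, 3 of the P stalk and 5 paralogues (Rpl7l1, Rpl22l1, Rpl36al, Rps27l and Rps27rt). The remaining member, Rps19bp1, is known as a regulator of the deacetylase Sirt1 and is not a ribosomal protein, so 81 members are ribosomal protein genes or their paralogues.

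The libraries form 3 groups of 3, all from KP-GFP tumour cells of C57BL/6 background that were grown as spheroids for 7 days and then sorted by their GFP: cells co-cultured with tissue-resident macrophages (TRMs, here alveolar macrophages of the lung), cells co-cultured with bone-marrow monocytes, and cells grown alone. The labels do not give the alleles that the tumour cells carry. Each spheroid started from 2500 tumour cells, with 5000 TRMs, with 5000 monocytes or with nothing added, and 32 spheroids were pooled for each condition. The design asked what each kind of myeloid cell does directly to the tumour cells. Nothing in the labels says that replicates came from separate cultures, so each p-value here speaks of the spread between libraries alone, and that spread may be technical. All groups share 1 tumour line, and nothing says how many clones it holds.

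A ribosome has a large and a small subunit, each built from ribosomal RNA and a large set of proteins that are mostly present in a single copy, so cells make these proteins in matched amounts. The exception is the stalk of the large subunit, where Rplp0 anchors dimers of Rplp1 and Rplp2 that bring elongation factors to the ribosome. Transcription of ribosomal protein genes is raised by Myc among others, and translation of their messages is controlled by the mTOR pathway through a run of pyrimidines at the start of the message, the 5′ terminal oligopyrimidine that Larp1 binds. Fast-growing tumour cells carry large amounts of these messages.

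The starts of 8 members are printed to show the letters at the annotated start of 4 members called in the comparisons given further on, and to show what the pyrimidine run looks like in 4 others that were picked because such a run crosses their start. Each line holds 20 bases on either side of the start annotated by RefSeq on GRCm38.p6, with the longest run made only of C and T on the gene's strand in capitals. Rplp0, Rpsa, Rpl6 and Rpl5 were called, and Rps6, Rpl15, Rps10 and Rps27 were picked for their run, so the lines make no comparison between called and other members. Rplp1 has no entry.
Rplp0: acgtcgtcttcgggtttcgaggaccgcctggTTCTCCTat
Rpsa: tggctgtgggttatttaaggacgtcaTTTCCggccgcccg
Rpl6: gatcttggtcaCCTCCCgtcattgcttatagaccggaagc
Rpl5: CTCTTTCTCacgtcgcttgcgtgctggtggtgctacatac
Rps6: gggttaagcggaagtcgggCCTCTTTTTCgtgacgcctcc
Rpl15: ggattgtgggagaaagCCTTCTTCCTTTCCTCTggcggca
Rps10: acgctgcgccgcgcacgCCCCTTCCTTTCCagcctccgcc
Rps27: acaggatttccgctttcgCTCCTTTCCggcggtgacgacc
The windows lie at chr5:115559447-115559486 (plus strand) for Rplp0, at chr9:120127746-120127785 (plus) for Rpsa, at chr5:121204481-121204520 (plus) for Rpl6 and at chr5:107900508-107900547 (plus) for Rpl5. Those of the other four are chr4:86857348-86857387 (minus) for Rps6, chr14:18270967-18271006 (minus) for Rpl15, chr17:27635225-27635264 (minus) for Rps10 and chr3:90213629-90213668 (minus) for Rps27. Among the members with an entry that were not called, the longest run had 3 to 21 letters, and in Rplp0, Rpsa, Rpl6 and Rpl5 it had 5 to 9. Of the 81 ribosomal protein genes, 61 matched the RefSeq table by symbol, and 28 of these (45.9%) held a run of at least 8 letters of C and T in the 40 bases. The share was 15.4% over the 9765 tested genes with an entry and 16.2% over 68 mitochondrial ribosomal protein genes. The annotated starts were not checked against reads, and a start placed a few bases off would move the run.

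Depth was 16001895 to 25240220 reads per library with TRMs, 18381707 to 24037053 with monocytes and 21341370 to 32771448 alone, as recovered from the deposited values. Reads of the tumour epithelium markers were present in all groups: 7 of 8 listed markers are in the table, with sums of 14687 to 18059 CPM with TRMs, 9960 to 15660 with monocytes and 14189 to 15638 alone (Nkx2-1 was not analysed here). The general markers of macrophages and monocytes, 11 of 18 in the table, summed to 158 to 310 with TRMs, 170 to 244 with monocytes and 150 to 239 alone, and Fcer1g, Tyrobp, Adgre1, Aif1 and the C1q genes were not analysed here. Markers of alveolar macrophages (7 of 11 in the table) summed to 226 to 236 CPM with TRMs, 196 to 230 with monocytes and 218 to 234 alone, and those of monocytes (6 of 11, Fn1 among them) to 3154 to 6074 with TRMs, 3348 to 3402 with monocytes and 2582 to 3584 alone. Against alone, limma called 1 general, 1 alveolar and 1 monocyte marker higher and 1 alveolar marker lower with TRMs. With monocytes it called 2 tumour epithelium markers lower, 1 general marker higher and 1 lower, 1 alveolar marker higher and 3 lower, and 2 monocyte markers higher and 2 lower. No marker of neutrophils or red cells on the lists is in the table. The 8 mitochondrial transcripts took 0.462% of reads on average with TRMs, 0.45% with monocytes and 0.612% alone, and 0 of the 8 were called by limma in any comparison (2 at an unadjusted p under 0.05, with monocytes). The part of myeloid RNA or of RNA quality in the results was not tested. All values are in CPM, the authors' scaled read counts per 1e6 reads, and log2 fold changes and their standard errors (SE) are on the log2 of those values.

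Monocyte library 3 and alone library 2 stood apart from the other libraries of their groups in the ribosomal protein genes, so results that rest on them are given with and without them. Monocyte library 3 was the highest of all 9 libraries for 73 of the 82 members, and it was the highest for 13.8% of all genes tested. Monocyte library 1, of the same group, was the lowest for 47 members and for 18.1% of all genes. Alone library 2 was above both other alone libraries in 78 members, against 38.6% of all genes. With these libraries in, the within-group SD of a member had a median of 0.12 (log2) with TRMs, 0.58 with monocytes and 0.37 alone. Over all genes the median SD was 0.22 with TRMs, 0.28 with monocytes and 0.21 alone, so the members were tighter than a typical gene in the TRM group and looser in the other groups.

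**Figure D1:**
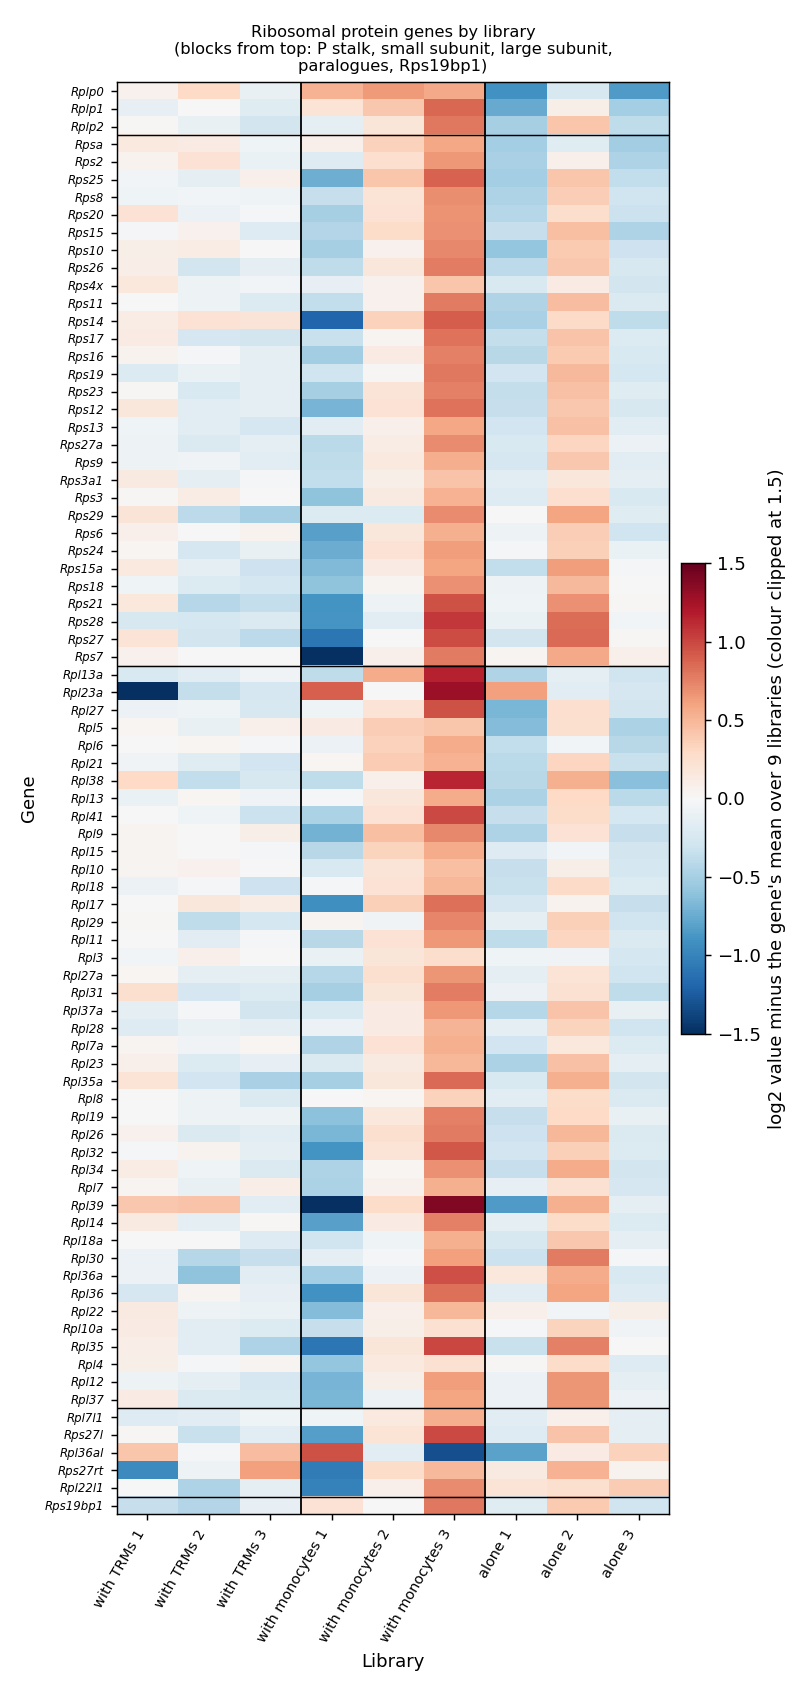
Each row is 1 of 81 members (1 of the 82 is not shown) and each column 1 of the 9 libraries, in the order with TRMs, with monocytes and alone. Colour gives the log2 value minus that gene's mean over the 9 libraries (red above, blue below, clipped at 1.5), and the column of monocyte library 3 is red in nearly every row while monocyte library 1 is mostly blue.

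With all 9 libraries, the share of reads in ribosomal protein messages did not separate the 3 groups. The members held 0.900%, 0.849% and 0.814% of reads in the TRM libraries, 0.762%, 1.037% and 1.322% in the monocyte libraries, and 0.743%, 1.059% and 0.724% in the alone libraries. Counting error was small against these gaps: the 95% Wilson interval was 1.3179% to 1.3270% in monocyte library 3 and 0.7577% to 0.7657% in monocyte library 1. The group means were 0.854% ± 0.0432 with TRMs, 1.04% ± 0.28 with monocytes and 0.842% ± 0.188 alone (SD, n = 3 each), and the groups overlapped. The overlap with the alone group rested on alone library 2: the other alone libraries (0.743% and 0.724%) lay below every TRM and monocyte library. The TRM and monocyte libraries overlapped with and without monocyte library 3. In such bulk libraries fewer cells that make a message and less message per cell cannot be told apart.

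Set against each gene's own mean, the median member stood at 0.02, −0.10 and −0.14 (log2) in the TRM libraries, at −0.44, 0.16 and 0.69 in the monocyte libraries and at −0.29, 0.36 and −0.22 in the alone libraries. The median over all genes stayed between 0.00 and 0.03. Within the monocyte group and within the alone group, the libraries spanned more than the 3 groups' middle libraries did.

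**Figure D2:**
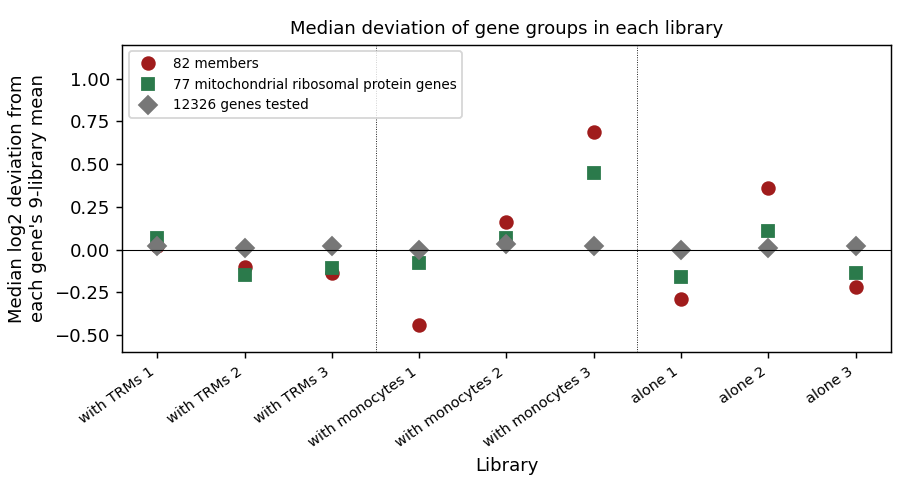
Points give, for each library, the median log2 deviation from each gene's mean over 9 libraries for the 82 members (circles), the 77 mitochondrial ribosomal protein genes (squares) and the 12326 genes tested (diamonds). The members' median is highest in monocyte library 3 at 0.69 and lowest in monocyte library 1 at −0.44, and the median of all genes lies near 0 in every library.

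Levels differed widely between single members, although most of the proteins are present in a single copy per ribosome. Per kilobase of exon, Rplp0 was the highest in the alone group at 459 CPM per kb, followed by the large subunit gene Rpl4 at 327, the small subunit gene Rps3a1 at 320, Rplp1 at 266 and the large subunit gene Rpl32 at 191. At the low end stood Rpl36al at 1.10, Rpl23a at 1.21, Rpl13a at 3.24, Rpl35a at 4.23 and Rps27rt at 4.47 CPM per kb. The highest was 418 times the lowest. Over all 9 libraries Rplp0 held 13.5% of the members' reads and the 5 members with most reads held 33%, while 24 of the 81 genes averaged at least 100 CPM and 5 were under 10 CPM. With the length of 1 transcript in place of all exons, the order kept a Spearman rho of 0.93 and 8 of the 10 highest members were shared.

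These levels depend on how reads with more than 1 origin were counted, which is not given in the sources used here. Ribosomal protein genes have many processed pseudogenes. In the GENCODE M21 annotation, 50-base windows were taken from each member's longest coding transcript. A median of 47.4% of a member's windows occur in another annotated gene. In 37 members the share was at least 50%. Rpl23a, at 85.7% and with 28 pseudogenes, is among the lowest, but Rps3a1 is among the highest with 71.0% shared. Across 81 members the share had a Spearman rho of −0.05 with the level per kb, of −0.07 with the fold change of TRMs against alone and of 0.05 with that of monocytes against alone. These are descriptions over genes of the same libraries.

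With TRMs, Rplp0 and Rpsa rose and the other 80 members passed in neither direction. Rplp0 had 1234, 1453 and 1094 CPM with TRMs, against 628, 1001 and 656 CPM alone. All TRM libraries lay above all alone libraries. Its log2 fold change was 0.75 (SE 0.18, limma adjusted p = 0.0111). Rpsa, a small subunit protein also known as the laminin receptor precursor, had 326, 322 and 282 CPM with TRMs, against 208, 260 and 205 CPM alone. These groups did not overlap either, and the log2 fold change was 0.47 (SE 0.15, limma adjusted p = 0.0473).

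In this comparison 10.2% of all 12326 genes tested were called higher and 8.15% lower, 18.4% in all, so 2 higher and 0 lower of 82 members is below the background in both directions. The median member had a log2 fold change of −0.02, against −0.00 over all genes, with 38 members positive and 44 negative and a range of −0.85 to 0.75. Scaled by library totals, 23 were positive and 59 negative, at a median of −0.11 against −0.09 over all genes. Apart from Rplp0 and Rpsa, the TRM libraries lay wholly above the alone libraries for Rpl3, Rpl6 and Rpl15 and wholly below for Rpl22l1, Rps28 and Rpl23a. These are 5 members higher and 3 lower in all, where 20.8% and 18.5% of all genes had such groups. The calls did not hold with every library left out: without TRM library 2, alone library 1 or alone library 3, no member was called, and Rplp0 had a limma adjusted p of 0.0632, 0.0634 and 0.0608. Its log2 fold change was then 0.64, 0.63 and 0.66. Calls over all genes fell too in these fits, from 1257 higher and 1005 lower to 671 and 548, 825 and 617, and 855 and 536. Without alone library 2 the median member moved to 0.17, and Rpl5 joined Rplp0 and Rpsa among those called (limma adjusted p = 0.0273). The call of Rpsa was lost in 9 of 22 alternatives, edgeR's quasi-likelihood test among them (adjusted p = 0.0589).

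With monocytes, 5 members rose: Rplp0 and Rplp1 of the stalk, Rpsa of the small subunit, and Rpl6 and Rpl5 of the large subunit. Rplp0 had 1696, 1841 and 1756 CPM with monocytes, against 628, 1001 and 656 CPM alone. The log2 fold change of 1.24 (SE 0.18, limma adjusted p = 0.000302) was the highest of any member in the 3 comparisons. Its monocyte libraries were close together. Rplp1 had 195, 223 and 308 CPM with monocytes, against 100, 180 and 119 CPM alone. Its groups did not overlap, and its log2 fold change was 0.88 (SE 0.21, limma adjusted p = 0.00688). Rpsa had 310, 373 and 442 CPM with monocytes, against 208, 260 and 205 CPM alone, again without overlap. The log2 fold change of Rpsa was 0.74 (SE 0.15, limma adjusted p = 0.00344).

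Both large subunit genes overlapped between the groups in 1 library. Rpl6 had 120, 161 and 187 CPM with monocytes, against 98.7, 124 and 95.8 CPM alone, so that monocyte library 1 lay below alone library 2. Its log2 fold change was 0.54 (SE 0.17, limma adjusted p = 0.0275). Rpl5, which with Rpl11 and 5S rRNA forms the particle that binds Mdm2, had 84.6, 100 and 103 CPM with monocytes, against 49.3, 91.7 and 55.8 CPM alone. The log2 fold change of Rpl5 was 0.60 (SE 0.20, limma adjusted p = 0.0408), and here too monocyte library 1 lay below alone library 2. Rpl11 itself had 36.1, 56.1 and 76.1 CPM with monocytes, against 37.2, 60.2 and 41.5 CPM alone, and was not called.

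**Figure D3:**
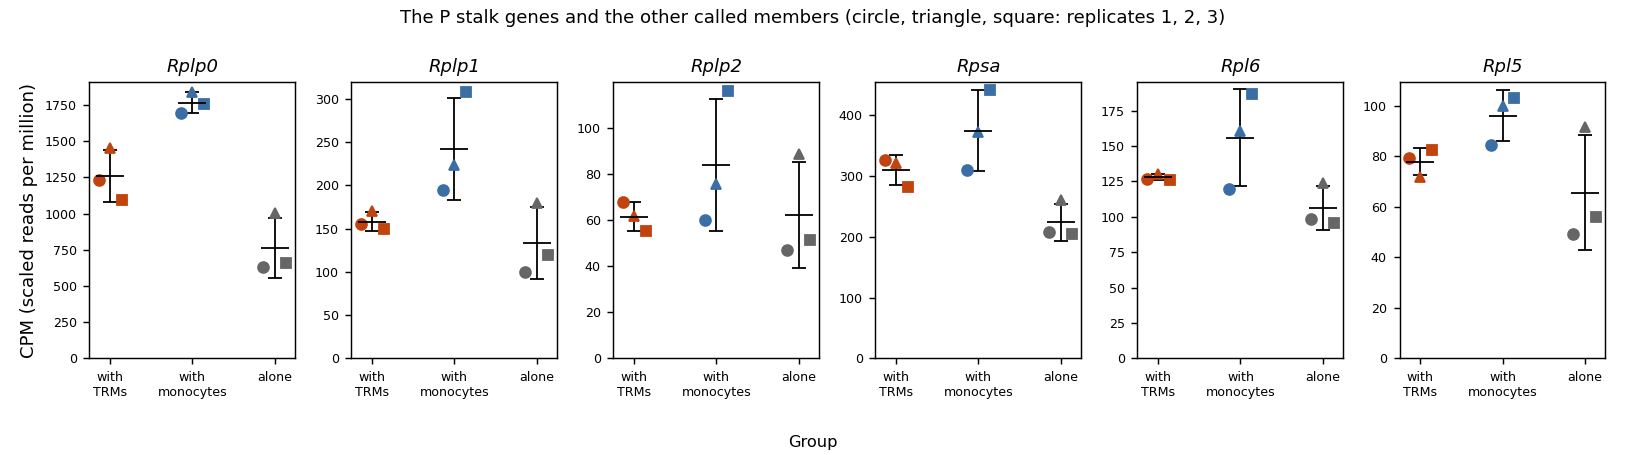
CPM of the 3 stalk genes and of Rpsa, Rpl6 and Rpl5 in each library (circle, triangle and square for replicates 1, 2 and 3), with the mean and SD of each group of 3. Every monocyte library lies above every alone library for Rplp0, Rplp1 and Rpsa, and the groups overlap for Rplp2, Rpl6 and Rpl5.

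With monocytes 14.7% of all genes were called higher and 12.7% lower, against 5 higher and 0 lower of 82 members. These are 27.3% of all genes in either direction. At an unadjusted p under 0.05 there were 9 members, all higher, where 38.3% of all genes passed in either direction. Besides those called, they were Rps2, Rpl27, Rpl21 and Rpl13a. The monocyte libraries lay wholly above the alone libraries for 3 members and wholly below for 0, where 21.3% and 19.2% of all genes had such groups. The median member had a log2 fold change of 0.19, against −0.02 over all genes, and 62 members were positive and 20 negative. That median rested on monocyte library 3: without it the median was −0.10, with 29 members positive and 53 negative, and without monocyte library 1 it was 0.47. Without alone library 2 it was 0.39. Rplp0, Rplp1 and Rpsa were called higher in all 22 alternatives (limma, limma-voom, edgeR and DESeq2), with adjusted p-values of at most 0.00264 for Rplp0, 0.0377 for Rplp1 and 0.0215 for Rpsa. The call of Rpl5 was lost in 9 of 22 alternatives, among them edgeR's quasi-likelihood test (adjusted p = 0.0645), library totals (limma adjusted p = 0.0567) and leaving out TRM library 2 or 3, and that of Rpl6 in 5. Without monocyte library 3 the calls of Rpl6 (limma adjusted p = 0.0942) and Rpl5 (0.0898) were lost, and Rps7 was called lower (0.0455). Without monocyte library 1 the count of called members was 14 and without alone library 2 it was 10, and without monocyte library 2, alone library 1 or alone library 3 it was 3.

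**Figure D4:**
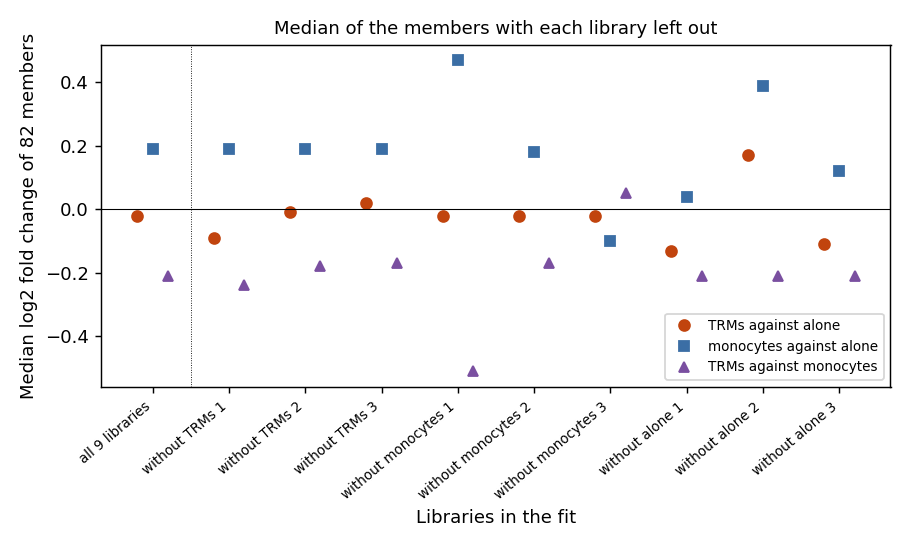
Median log2 fold change of the 82 members in each comparison (circles, TRMs against alone; squares, monocytes against alone; triangles, TRMs against monocytes) with all 9 libraries and with each left out in turn. Leaving out monocyte library 3 puts the median for monocytes against alone below 0, at −0.10, and that for TRMs against monocytes above 0, at 0.05.

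Both co-cultures were set against the same 3 alone libraries, so their values are given side by side and not as independent results. Between the co-cultures themselves no member was called by limma, edgeR, limma-voom or DESeq2. The background is low here, since limma called 0.325% of all genes higher and 0.073% lower with TRMs, 0.398% in all. At an unadjusted p under 0.05 there were 5 members, all lower with TRMs (Rplp1, Rplp0, Rpl21, Rps19bp1 and Rpl7l1), where 11.7% of all genes passed. Rplp1 had 155, 170 and 149 CPM with TRMs, against 195, 223 and 308 CPM with monocytes, a log2 difference of −0.59 (SE 0.21, limma adjusted p = 0.264). Rplp0 was at 1094 to 1453 CPM with TRMs and at 1696 to 1841 CPM with monocytes, without overlap, a log2 difference of −0.49 (SE 0.18, limma adjusted p = 0.286). In all, 8 members lay wholly lower with TRMs and 0 wholly higher, where 8.62% and 7.55% of all genes did. The median member was at −0.21, with 9 positive and 73 negative, but at 0.05 with 54 positive without monocyte library 3.

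**Figure D5:**
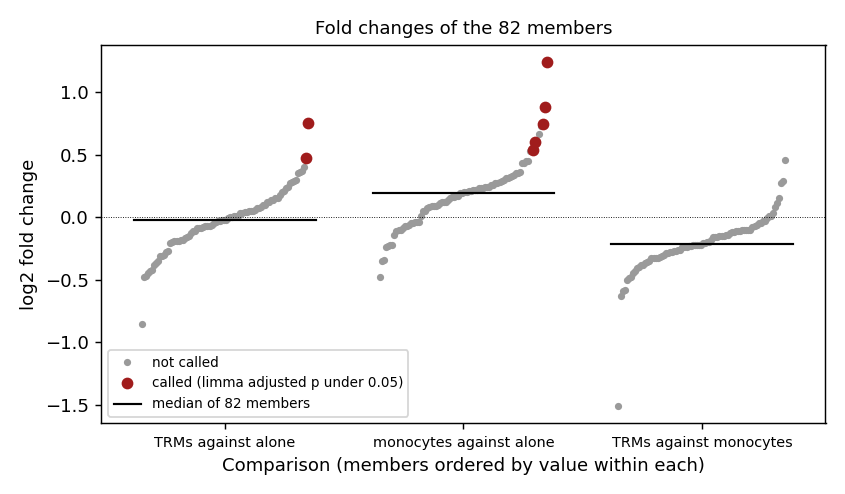
Log2 fold changes of the 82 members in the 3 comparisons, ordered by value within each, with the called members in red and the median as a bar. The 2 called members of TRMs against alone are the highest of their column, and of the 5 of monocytes against alone, Rplp0, Rplp1 and Rpsa are the highest of theirs while Rpl5 (0.60) and Rpl6 (0.54) lie below Rpl13a (0.73) and Rpl23a (0.66), which were not called.

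Of the 3 stalk genes, Rplp0 was called in both co-cultures, Rplp1 with monocytes, and Rplp2 in neither. Summed over the stalk, the libraries had 1457, 1685 and 1298 CPM with TRMs, 1952, 2140 and 2180 CPM with monocytes, and 775, 1269 and 826 CPM alone. Rplp2, the partner of Rplp1, had 67.7, 61.7 and 55.2 CPM with TRMs, 60, 75.7 and 116 CPM with monocytes, and 47.1, 88.7 and 51.3 CPM alone. Its groups overlapped, and it was called against alone with neither TRMs (log2 fold change 0.04, SE 0.25) nor monocytes (0.43, SE 0.25).

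Each gene was also taken relative to the median of the other members of its library. For a gene that does not vary with the members, such as Rplp0 (r = 0.36), this scale brings their swings in. On that log2 scale Rplp0 stood at 4.60 ± 0.20 with TRMs, 4.91 ± 0.61 with monocytes and 3.77 ± 0.03 alone (SD, n = 3 each). Rpsa stood at 2.59 ± 0.06 with TRMs, 2.66 ± 0.37 with monocytes and 2.03 ± 0.16 alone, and Rplp1 at 1.62 ± 0.13, 2.02 ± 0.32 and 1.24 ± 0.13 in the same order. For these 3 genes both co-cultures lay wholly above the alone libraries. Only stalk genes and called members are given on this scale, and the share of other members without overlap was not counted. These values describe genes picked from the same libraries and add no separate support. With monocytes, Rpl6 (1.39 ± 0.31 with monocytes, 0.95 ± 0.15 alone) and Rpl5 (0.71 ± 0.49 with monocytes, 0.22 ± 0.14 alone) overlapped the alone libraries on this scale, with exact two-sided permutation p = 0.2 and 0.3, and Rplp2 overlapped them with TRMs (exact p = 0.4). With TRMs, however, Rpl6 (1.31 ± 0.11) and Rpl5 (0.59 ± 0.16) lay wholly above the alone libraries. Rplp2 did so with monocytes (0.46 ± 0.18 with monocytes, 0.13 ± 0.16 alone). In these comparisons, and for Rplp0, Rpsa and Rplp1 in both co-cultures against alone, the exact two-sided permutation p was 0.1. That is the smallest p that 3 against 3 allows, so this design cannot pass 0.05 in that test. Rplp0 was 5.49, 4.96 and 4.28 above the median member in monocyte libraries 1, 2 and 3. Its CPM there was 1696, 1841 and 1756, and the median member's log2 deviation was −0.44, 0.16 and 0.69. The fall on this scale is therefore that of the reference and not of Rplp0.

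In the small subunit, 1 of 31 genes was called in each comparison against alone, Rpsa. Over all genes 10.2% were called higher and 8.15% lower with TRMs, and 14.7% and 12.7% with monocytes. The median log2 fold change of the small subunit genes was −0.02 with TRMs and 0.17 with monocytes. Rps6, the substrate of the S6 kinases, had 104, 98.3 and 102 CPM with TRMs, 55.9, 110 and 142 CPM with monocytes, and 93.6, 127 and 79.8 CPM alone. Its TRM libraries fell inside the alone range and its monocyte libraries reached beyond it on both sides. Rps7 had 94.8, 90.6 and 91.3 CPM with TRMs, 29.7, 96.0 and 156 CPM with monocytes, and 93.5, 135 and 95.5 CPM alone. Monocyte library 1 was its lowest and monocyte library 3 its highest value of all libraries.

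In the large subunit, 0 of 42 genes were called with TRMs and 2, both higher, with monocytes, with medians of −0.01 and 0.21. The shares over all genes were again 10.2% higher and 8.15% lower with TRMs, and 14.7% and 12.7% with monocytes. Rpl4, which lines the exit tunnel, had 676, 628 and 654 CPM with TRMs, 425, 701 and 742 CPM with monocytes, and 644, 768 and 558 CPM alone, overlapping in all groups. Rpl13a, in human cells a member of a complex that silences inflammatory messages, had 7.16, 7.51 and 8.04 CPM with TRMs, 6.41, 12.2 and 18.6 CPM with monocytes, and 6.14, 7.63 and 6.77 CPM alone. Rpl39, which also lines the exit tunnel, had 15.1, 15.2 and 10.1 CPM with TRMs, 3.11, 13.7 and 29.8 CPM with monocytes, and 6.31, 16.5 and 10.4 CPM alone. Rpl13a was called only without monocyte library 1 (limma adjusted p = 0.0113, log2 fold change 0.73 and adjusted p = 0.127 with all libraries).

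Some ribosomal protein paralogues can replace their parent gene in some tissues, and none of the 5 here was called in any comparison by limma. Rpl22l1 had 12.9, 9.40 and 11.7 CPM with TRMs, 6.41, 13.6 and 21.1 CPM with monocytes, and 14.9, 15.2 and 16.8 CPM alone. Its TRM libraries lay wholly below the alone libraries (log2 fold change −0.48, SE 0.34, limma adjusted p = 0.379). With monocytes they overlapped, at a log2 fold change of −0.35. Its parent Rpl22 averaged 51.1 ± 4.70 CPM with TRMs, 53.1 ± 19.9 with monocytes and 52.9 ± 2.67 alone (SD, n = 3 each). Rps27l, a target of p53, averaged 38.7 ± 4.66 CPM with TRMs, 53.2 ± 30.9 with monocytes and 44.8 ± 11.3 alone, and its parent Rps27 averaged 51.4 ± 11.8, 64.5 ± 42.9 and 68.3 ± 29.0 in the same order. Rpl7l1 averaged 95 ± 4.66 CPM with TRMs, 123 ± 27.0 with monocytes and 99.9 ± 9.11 alone. Rpl36al and Rps27rt stayed under 3 CPM in every library. Rps19bp1, named like the family but no part of the ribosome, had 8.35, 7.81 and 9.75 CPM with TRMs, 12.3, 10.5 and 18.4 CPM with monocytes, and 9.39, 14 and 8.61 CPM alone, and its TRM libraries lay wholly below its monocyte libraries.

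The members varied together from library to library. Across the 9 libraries, 66 of the 82 correlated at r of at least 0.8 with the mean of the other members, with a median r of 0.91, while 2.04% of other genes reached that r with the mean of the members. The mitochondrial ribosomal protein genes shared part of this: 23 of the 77 reached an r of 0.8 with the members' mean, at a median r of 0.68. Taken within groups the members' median r was 0.95. It was 0.93 with the point of monocyte library 3 dropped, but the group means still included that library. The deviations of the other monocyte libraries therefore still carry it, and the 0.93 does not show the pattern apart from it. Lowest were Rpl36al (r = −0.65) and Rpl23a (0.13), both under 3 CPM in every library, and then Rplp0 (0.36). The genes outside the family that followed the members' mean most closely over the 9 libraries were Fam118b (r = 0.980), 2200002D01Rik (0.976), Commd2 (0.975), Ndufa11 (0.969) and Emg1 (0.966). These correlations describe 9 points that share libraries and scaling, and no test was made of them.

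Monocyte library 3 exceeded the mean of monocyte libraries 1 and 2 by a median of 0.86 (log2) over the members, by 0.46 over the mitochondrial ribosomal protein genes and by −0.01 over all genes. Across 81 members this excess had a Spearman rho of −0.53 with transcript length, of −0.43 with mean CPM and of 0.03 with the share of windows found in other genes. Alone library 2 exceeded the other alone libraries by a median of 0.62 over the members, by 0.26 over the mitochondrial ribosomal protein genes and by −0.00 over all genes. The part of RNA quality, cell numbers and library preparation in these gaps was not tested.

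The mitochondrial ribosome is a separate machine, whose proteins are made in the cytosol from nuclear genes, and its 77 genes in the table served for comparison. With TRMs 0 of them were called higher and 1 lower, Mrpl50, at a mean of 32.6 ± 1.92 CPM with TRMs and 49.3 ± 2.34 alone (log2 fold change −0.60, limma adjusted p = 0.0328). With monocytes 8 were called higher and 0 lower, where 14.7% and 12.7% of all genes were, so 8 of 77 is not above the background. Among them, Mrpl4 averaged 74.3 ± 3.79 CPM with monocytes and 45.2 ± 3.92 alone (log2 fold change 0.72, limma adjusted p = 0.00261), and Mrps27 averaged 32.3 ± 0.652 and 21 ± 0.417 in the same order. Their median log2 fold change was 0.02 with TRMs and 0.21 with monocytes, close to the −0.02 and 0.19 of the cytosolic genes. Between the co-cultures it was −0.21 for both families.

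Of the ribosomal proteins that the name rule leaves out, Fau and Rack1 were looked at, and neither was called by limma against alone or between the co-cultures. Fau, which encodes a small subunit protein fused to a ubiquitin-like one, had 82.1, 74.8 and 66.6 CPM with TRMs, 54.7, 74.4 and 127 CPM with monocytes, and 54.8, 84.7 and 55.4 CPM alone. It repeated the high values of monocyte library 3 and alone library 2. Rack1, a scaffold on the small subunit, had 331, 329 and 295 CPM with TRMs, 299, 362 and 442 CPM with monocytes, and 268, 362 and 246 CPM alone.

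Genes that build ribosomes were counted in the same way. The shares over all genes were 10.2% higher and 8.15% lower with TRMs and 14.7% and 12.7% with monocytes. Of 65 genes of rRNA processing, 2 rose and 0 fell with TRMs, and 9 rose and 0 fell with monocytes. Wdr36, a part of the small subunit processome, rose in both, with a mean of 178 ± 37.8 CPM with TRMs, 200 ± 27.2 with monocytes and 98.0 ± 12.8 alone (log2 fold changes 0.84 and 1.03, limma adjusted p = 0.00398 and 0.000777). Las1l, needed to cut the spacer next to 28S rRNA, was called with TRMs at a log2 fold change of 0.61, and Dkc1, the pseudouridine synthase of rRNA, with monocytes at 0.69. Of 15 genes of RNA polymerase I transcription, 0 rose and 1 fell with TRMs, the polymerase subunit Twistnb, at a log2 fold change of −0.77 (limma adjusted p = 0.0379). With monocytes 0 rose and 3 fell, namely Twistnb (−0.68), Taf1a (−0.72) and Ttf1 (−0.53). Of 20 assembly factors, 2 rose and 1 fell with TRMs, and 2 rose and 0 fell with monocytes. Nob1, the nuclease that makes the end of 18S rRNA, rose in both, with a mean of 81.4 ± 5.25 CPM with TRMs, 88.0 ± 10.2 with monocytes and 53.9 ± 7.21 alone. Aamp, whose yeast relative is a chaperone of Rpl10, rose with TRMs (0.46) and Ltv1, an assembly factor of the small subunit, fell (−0.49). Grwd1, whose yeast relative is a chaperone of Rpl3, rose with monocytes (0.64).

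Among 20 genes whose messages also carry the 5′ pyrimidine run, mostly translation factors, 3 rose and 0 fell with TRMs and 4 rose and 0 fell with monocytes. Over all genes, 10.2% were called higher and 8.15% lower with TRMs, and 14.7% and 12.7% with monocytes. Vim and Hnrnpa1, which rose in both, are not translation factors: Vim encodes the filament protein vimentin and had the largest log2 fold changes of the list, 2.09 with TRMs and 2.61 with monocytes. Eef1g, a subunit of the elongation factor 1 complex, rose in both (0.49 and 0.63), and Eef1d of the same complex rose with monocytes (0.44). Of 28 other initiation factors, 3 rose and 1 fell with TRMs, and 6 rose and 2 fell with monocytes. Eif3b averaged 492 ± 58.0 CPM with TRMs, 595 ± 86.8 with monocytes and 336 ± 29.0 alone, and Eif5a averaged 800 ± 45.1, 876 ± 54.0 and 535 ± 102 in the same order. Eif5, which acts on the GTP of eIF2, fell in both (−0.48 and −0.52).

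Of 25 known regulators of ribosomal protein synthesis, 3 rose and 1 fell with TRMs, 2 rose and 4 fell with monocytes, and 2 were higher and 0 lower with TRMs against monocytes. The shares over all genes were 10.2% higher and 8.15% lower with TRMs and 14.7% and 12.7% with monocytes. Between the co-cultures they were 0.325% and 0.073%. Myc had 374, 590 and 574 CPM with TRMs, 488, 566 and 481 CPM with monocytes, and 505, 925 and 722 CPM alone, and was called in neither co-culture by limma. Mxi1, which competes with Myc for its partner Max, averaged 168 ± 21.7 CPM with TRMs, 101 ± 7.95 with monocytes and 73.3 ± 2.25 alone. It rose in both co-cultures and was higher with TRMs than with monocytes (log2 difference 0.73, limma adjusted p = 0.0386). The related Mxd1 averaged 166 ± 23.0 CPM with TRMs, 88.1 ± 15.5 with monocytes and 102 ± 14.4 alone, and was also higher with TRMs than with monocytes (0.92, limma adjusted p = 0.0363). Both calls between the co-cultures ended without TRM library 2, when limma called 0 genes in that comparison. Akt1, a kinase upstream of mTOR, rose with TRMs (0.53) and with monocytes (0.61), and Tsc1, an inhibitor of mTOR signalling, fell with monocytes (−0.60, limma adjusted p = 0.0107). Larp4 fell in both (−0.54 and −0.59, limma adjusted p = 0.0318 and 0.0159), and Yy1 fell with monocytes. Larp1 had 154, 176 and 175 CPM with TRMs, 260, 185 and 164 CPM with monocytes, and 160, 253 and 186 CPM alone, and Mtor had 55.7 to 77.6 CPM over all libraries. Neither was called.

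In the authors' deposited table of monocytes against alone, 4 of the 80 members it holds were higher and 0 lower at the same threshold, with 28.2% of its 11081 genes called: Rplp0, Rplp1, Rpsa and Rpl6. The authors' deposited table of TRMs against alone has 2 of 80 members higher, Rplp0 and Rpsa, and 0 lower, with 23.7% of its 11085 genes called. In the authors' deposited table of monocytes, Rpl5 had a false discovery rate of 0.0609. Rpl23a and Rps27rt are not among its 80 members.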

How the data were processed

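Per the submitters' processing notes, the authors used STAR 2.5, edgeR and the mm10 build. For the counting tool and the annotation nothing is stated in the sources used here. The table the authors deposited holds a normalised signal for each gene and library, in CPM scaled by TMM factors with 0.5 read added: all 111051 values gave whole read counts within 1e-06 read. Whether the libraries mark strand is not stated, so antisense reads cannot be told apart. The log2 fold changes, mean log2 levels, likelihood ratio scores, p-values and false discovery rates in the authors' deposited tables are theirs.

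Log2 values were tested with limma 3.58.1 (R 4.3.3), with a variance trend, in 1 model of group means fitted to the 9 libraries, two-sided, with 6 residual degrees of freedom. edgeR's filterByExpr (minimum count 10, minimum total 15) removed 13 genes and left 12326, all 82 members included. A call means a p under 0.05 after Benjamini-Hochberg adjustment over all 12326. Alternatives used edgeR 4.0.16, limma-voom and DESeq2 1.42.0 on the recovered counts, other scalings, filters and pseudocounts, left-out libraries, a replicate block and removal of GC and length trends. Replicates of a group differed far beyond sampling noise, so each was counted. The procedure was tested on simulated data.

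Named members were those called in any comparison, the 3 highest and 3 lowest fold changes of each, the 5 highest and 5 lowest levels per length, the paralogues with their parents, Rps6 and Rps19bp1. In other lists up to 4 called genes were named, by smallest p, and 5 non-members by correlation with the members. The members, the gene lists and the tests were chosen with earlier results of these data known. Other genes were named after their values were seen (Rplp2, Rps2, Rpl27, Rpl21, Rpl3, Rpl11, Rpl15, Fau, Rack1, Myc, Larp1 and Mtor). Rpl24 was not analysed here, and single values of some genes are not reported here. Exon lengths, positions and shared windows come from GENCODE M21 on GRCm38, and start sequences from RefSeq. Intervals on shares cover counting error only.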

Additional observations from a re-analysis of the deposited data

How the results depend on the processing

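Depth was ample for most members, and the spread between the 3 libraries of a group limited the tests. Members called higher with TRMs against alone were 2, and 1 with library totals, edgeR or the GC and length trend removed, and 0 to 3 with single libraries left out. With monocytes they were 5, and 4 with library totals or edgeR, 3 when fitted on only the groups compared, and 3 to 14 with libraries left out, when 0 to 1 were called lower. Medians with libraries left out ran from −0.13 to 0.17 with TRMs against alone, −0.10 to 0.47 with monocytes against alone, and −0.51 to 0.05 between the co-cultures. The cause was not tested. All genes called numbered 2262 with TRMs (1219 to 2593 with libraries left out) and 3366 with monocytes (2239 to 3529). Between the co-cultures 49 were called, against 86 with limma-voom, 336 with DESeq2, 75 with log2(value + 1) and 0 to 134 with libraries left out (0 without TRM library 2). Library totals called 1003 genes higher and 1302 lower with TRMs, against 1257 and 1005, and between the co-cultures 35 and 16, against 40 and 9. The members' share of reads with TRMs was 1.04% with the 50 other genes of most reads left out of the total.

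The labels do not say whether replicate numbers pair the libraries, and the correlations did not settle it. Deviations of same-numbered libraries correlated at −0.025 to 0.429, and those of different-numbered libraries at −0.401 to 0.265. Same-numbered pairs were above 0 except monocyte library 2 with alone library 2 (−0.025), and most different-numbered pairs were below 0. TRM library 2, however, correlated slightly better with monocyte library 1 (0.057) than with monocyte library 2 (0.039). A replicate block left 2 members called with TRMs and 5 with monocytes, and called 79 genes between the co-cultures, or 133 with the GC and length trend removed as well.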
